A study of Mus musculus with 18 samples.

Results

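Matrix metalloproteinases are zinc-dependent enzymes that cut collagens and other proteins of the extracellular matrix, and 10 genes of this system were followed here through the embryonic lower jaw. They were 6 metalloproteinases (*Mmp2*, *Mmp11*, *Mmp13*, *Mmp14*, *Mmp16* and *Mmp23*) and 4 inhibitors (*Timp1*, *Timp2*, *Timp3* and *Reck*), chosen by name from the 38243 genes counted in each library. RNA was taken by laser capture microdissection from frozen coronal sections of the heads of 6 female C57BL/6 embryos at embryonic day 16.5. Of these embryos, 3 were *Fgfr2+/S252W*, which carry 1 copy of an *Fgfr2* allele of Apert syndrome and are a model of this craniosynostosis, and 3 were their *Fgfr2+/+* littermates without the allele. Each embryo gave 1 library of mandibular bone, 1 of Meckel's cartilage (MC) and 1 of mandibular condylar cartilage, which makes 18 libraries, or 3 for each genotype in each tissue. A dissected area holds every cell type within it, and the RNA was amplified before sequencing.

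The enzymes are made as inactive precursors, and their activity is held back by inhibitors. *Mmp13* encodes collagenase 3, the main interstitial collagenase of the mouse skeleton, made by osteoblasts and by the last hypertrophic chondrocytes of growing cartilage. *Mmp14* and *Mmp16* encode membrane-type enzymes that are anchored to the cell surface, and MMP14 activates the gelatinase encoded by *Mmp2* in a complex that needs the inhibitor TIMP2. *Mmp11* and *Mmp23* encode enzymes that are activated inside the cell by furin-like convertases. TIMP1, TIMP2 and TIMP3 bind the active site of the enzymes, TIMP3 being bound to the matrix, whereas RECK is an inhibitor anchored to the cell membrane.

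Library totals ran from 8218548 to 15585778 assigned fragments, and all 10 genes passed the filter on low values (above 1 FPKM, fragments scaled by exon length and library total without normalization factors, in at least 50% of the 18 libraries), as did 11469 genes in all. Levels are given in FPKM, computed with TMM normalization factors and exon length, and are comparable between genes. Differences are log2 differences with their standard error (SE) and Benjamini-Hochberg adjusted p from limma, and a gene passed at an adjusted p below 0.05. The smallest counts were those of *Mmp23* in MC, where 3 to 41 fragments were counted per library, and those of *Mmp13* in MC, with 14 to 263 fragments. The mitochondrial share of the counts ran from 19.4% to 38.1%. The share of 1 abundant transcript, *Gm42418*, did not overlap between tissues, at 24.1% to 39.4% in MC, 10.9% to 20.2% in condylar cartilage and 5.585% to 9.33% in bone, and its part in the tissue differences was not tested beyond a scaling of the libraries to totals without it and the mitochondrial genes. This scaling changed the calls of *Mmp13*, *Mmp23*, *Timp3* and *Reck* that are named with it.

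The dissected tissues were checked by marker genes before any comparison. Summed over 10 osteoblast markers, the level was between 5913 and 9414 FPKM in bone, and summed over 10 chondrocyte markers it was between 6400 and 7714 FPKM in condylar cartilage. In MC the chondrocyte markers summed to between 464 and 1998 FPKM in 5 libraries, below every condylar library, and connective tissue markers summed to between 593 and 880 FPKM over all 6 MC libraries, above the range of 330.2 to 441 FPKM in condylar cartilage. The chondrocyte marker *Snorc* was at 0 in all 6 bone libraries. *Fgfr2+/+* MC replicate 1 went against its label, with a chondrocyte sum of 81.8 FPKM, inside the range of bone (39.6 to 107 FPKM). Its type II collagen gene *Col2a1* was at 41.6 FPKM, whereas the other 5 MC libraries lay between 306 and 1410 FPKM, and its osteoblast transcription factor gene *Sp7* was at 54.3 FPKM, whereas the others lay between 4.05 and 20.2 FPKM. Values in MC are therefore given with and without this library where a result rests on it. Replicate 3 of the condylar cartilage had the highest osteoblast marker sum of its group in both genotypes, 4187 FPKM in *Fgfr2+/+* and 6626 FPKM in *Fgfr2+/S252W* embryos, whereas the other 4 condylar libraries lay between 1675 and 2124 FPKM.

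Sequences immediately upstream of the transcription start are shown for 3 genes on which the results turn, *Mmp13* and *Timp1*, which were highest in bone, and *Mmp14*, which was highest in MC. Each is the 250 bases before the RefSeq start on GRCm38.p6, read 5′ to 3′ on the strand of the gene. Those of *Mmp13* lie at chr9:7272264-7272513, those of *Mmp14* at chr14:54431348-54431597 and those of *Timp1* at chrX:20869916-20870165, all on the plus strand. Capitals mark 4 short motifs searched on both strands, namely AP-1 letters (TGACTCA or TGAGTCA), RUNX letters (AACCACA or TGTGGTT), GC box letters (GGGCGG or CCGCCC) and TATA letters (TATAAA or TTTATA), of which 2 GC boxes in *Mmp14* adjoin.
Mmp13: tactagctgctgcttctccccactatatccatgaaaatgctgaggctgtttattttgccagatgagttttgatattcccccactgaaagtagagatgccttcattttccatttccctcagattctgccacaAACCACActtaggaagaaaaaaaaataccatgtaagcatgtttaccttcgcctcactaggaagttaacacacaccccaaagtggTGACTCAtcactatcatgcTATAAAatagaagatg
Mmp14: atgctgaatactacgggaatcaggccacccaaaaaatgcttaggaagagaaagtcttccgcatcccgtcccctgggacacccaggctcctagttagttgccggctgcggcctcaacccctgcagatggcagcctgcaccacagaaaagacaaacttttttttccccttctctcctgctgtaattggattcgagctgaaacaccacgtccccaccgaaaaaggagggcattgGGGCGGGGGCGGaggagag
Timp1: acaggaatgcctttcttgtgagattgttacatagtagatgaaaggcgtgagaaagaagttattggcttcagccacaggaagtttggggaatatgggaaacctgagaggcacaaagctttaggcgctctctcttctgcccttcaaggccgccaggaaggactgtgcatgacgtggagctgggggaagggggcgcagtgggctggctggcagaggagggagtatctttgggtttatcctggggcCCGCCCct

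The upstream sequence of *Mmp13* differed in its letters from those of the other genes. It held 1 CpG and was 40.4% G or C, with AP-1 letters from base -35 to -29, RUNX letters from -119 to -113 and TATA letters from -16 to -11, counted back from the start. *Mmp14* held 10 CpG at 55.2% G or C, and *Timp1* held 6 CpG at 54.4%. A RefSeq window was given for 8 of the 10 genes, *Mmp2* and *Mmp16* being the others, and among these 8 the letters for AP-1, RUNX and TATA were found in *Mmp13* only. GC box letters were found in *Mmp11*, *Mmp14*, *Timp1*, *Timp2*, *Timp3* and *Reck*. Over all 32851 windows of this length, 4.46% held the AP-1 letters, 4.4% the RUNX letters, 32.7% the GC box letters and 12.4% the TATA letters. Their medians were 6 CpG and 52.4% G or C, and 29% of them held at most 2 CpG. These are matches of letters, and binding was not measured.

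The order of the levels was not the same in the 3 tissues. In bone, *Mmp13* was highest at a mean of 498 ± 147 FPKM (SD, n = 6), and its lowest library was above the highest library of any other member. *Mmp2* (95.8 ± 18.8 FPKM), *Timp1* (80.5 ± 16.1 FPKM) and *Mmp14* (60.5 ± 11.5 FPKM) followed, each overlapping its neighbor in the order, and *Mmp23* and *Mmp11* were lowest, at 5.68 ± 0.907 and 5.25 ± 0.778 FPKM. In MC, *Timp2* (152 ± 32.4 FPKM), *Mmp14* (117 ± 25.2 FPKM) and *Mmp2* (113 ± 18.6 FPKM) were highest and their libraries overlapped one another in this order, whereas all lay above *Timp3* (35.2 ± 5.52 FPKM). *Mmp13* was next to lowest there, at 2.68 ± 3.19 FPKM, and remained so without *Fgfr2+/+* MC replicate 1, at 1.39 ± 0.458 FPKM (SD, n = 5). In condylar cartilage, *Mmp2* (62.2 ± 12.1 FPKM), *Timp3* (49.1 ± 6.84 FPKM) and *Timp1* (48.7 ± 15.8 FPKM) were highest and overlapped, and *Mmp11* was lowest at 1.55 ± 0.694 FPKM, below *Mmp23*. The other means and SDs in this paragraph are over the 6 embryos of both genotypes.

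**Figure D1:**
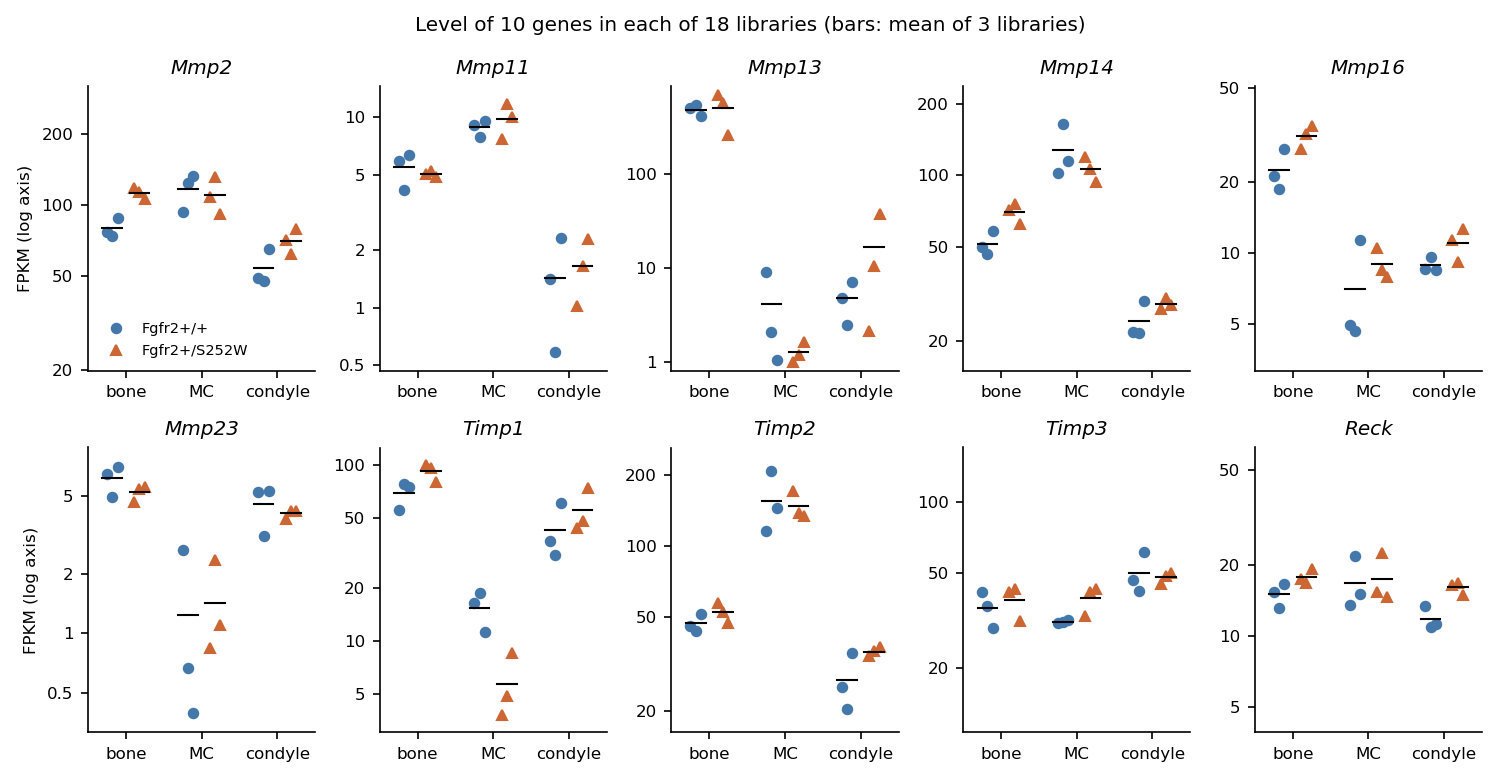
Level of each of the 10 genes in FPKM (log axis) in each library of mandibular bone, MC and condylar cartilage (condyle), with circles for *Fgfr2+/+*, triangles for *Fgfr2+/S252W* and bars for the mean of 3 libraries. The tissues separate most in *Mmp13*, whose bone libraries lie between 262 and 696 FPKM and whose other libraries lie at or below 38.0 FPKM.

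The tissues were compared within embryos, with the embryo as a block, as the codes in the labels give it, and both genotypes given equal weight. *Mmp13*, the collagenase, separated bone from both cartilages. Its 6 bone libraries were at 507, 541 and 414 FPKM in *Fgfr2+/+* and at 696, 567 and 262 FPKM in *Fgfr2+/S252W* embryos. The MC libraries were at 9.14, 2.07 and 1.05 FPKM in *Fgfr2+/+* and at 0.999, 1.18 and 1.64 FPKM in *Fgfr2+/S252W* embryos, so that the highest MC value was that of the library that stood apart. Bone was higher than MC in 6 of 6 embryos, by 7.73 on the log2 scale (SE 0.68, adjusted p = 1.32e-07, limma), or 212-fold, by 8.41 (SE 0.97) without *Fgfr2+/+* MC replicate 1 and by 8.58 (SE 0.51) without *Fgfr2+/S252W* bone replicate 3. It was 6.94 (SE 0.94) in *Fgfr2+/+* and 8.51 (SE 1.15) in *Fgfr2+/S252W* embryos alone. In bulk tissue, fewer cells that make a transcript and less of it per cell cannot be told apart. Condylar libraries were at 4.80, 2.45 and 7.08 FPKM in *Fgfr2+/+* and at 2.13, 10.5 and 38.0 FPKM in *Fgfr2+/S252W* embryos. Bone was higher than condylar cartilage in 6 of 6 embryos, by 6.22 (SE 0.51, adjusted p = 2.61e-08, limma). This difference was 5.61 (SE 0.41) and 5.58 (SE 0.40) without *Fgfr2+/S252W* replicate 1 of bone or of condylar cartilage, and 6.84 (SE 0.37) and 6.87 (SE 0.35) without replicate 3 of either. It was 6.83 (SE 0.72) in *Fgfr2+/+* and 5.61 (SE 0.67) in *Fgfr2+/S252W* embryos alone.

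The condylar library with the most *Mmp13* also had the most transcripts of bone-forming cells. In this *Fgfr2+/S252W* library at 38.0 FPKM, the bone sialoprotein gene *Ibsp* was at 4193 FPKM and the osteopontin gene *Spp1* at 532 FPKM, whereas the other 5 condylar libraries lay between 1024 and 2780 FPKM and between 58.1 and 208 FPKM. The collagen gene of hypertrophic chondrocytes, *Col10a1*, was at 993 FPKM in that library, within the range of 334 to 1343 FPKM of the others. The order did not hold through the other libraries, since *Fgfr2+/S252W* replicate 2 had 10.5 FPKM of *Mmp13* at an osteoblast marker sum of 1958 FPKM and *Fgfr2+/+* replicate 3 had 7.08 FPKM at 4187 FPKM. Summed over 4 hypertrophic chondrocyte markers, replicate 3 was the highest of its group in both genotypes, at 2419 FPKM against 1672 and 1707 FPKM in *Fgfr2+/+* and at 1963 FPKM against 1396 and 1423 FPKM in *Fgfr2+/S252W* embryos. The part of these cells in the *Mmp13* levels was not tested. Condylar cartilage was higher in *Mmp13* than MC in 5 of 6 embryos, by 1.51 (SE 0.62, adjusted p = 0.0459, limma). This call did not hold in 16 of 29 other fits, with adjusted p-values up to 0.928 in the *Fgfr2+/+* embryos alone, where the difference was 0.11. It was 1.42 (adjusted p = 0.0513, limma) with libraries scaled to totals without mitochondrial genes and *Gm42418*. In *Fgfr2+/S252W* embryos alone it was 2.90 (adjusted p = 0.0264, limma). Without the *Fgfr2+/S252W* condylar replicate 3 the difference was 0.90 (adjusted p = 0.0759, limma), without *Fgfr2+/S252W* condylar replicate 1 it was 2.19 (adjusted p = 0.00100, limma), and without *Fgfr2+/+* MC replicate 1 it was 2.24 (adjusted p = 0.0340, limma).

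*Mmp14* and *Timp2*, the membrane-type enzyme and the inhibitor with which it activates MMP2, were both highest in MC and lowest in condylar cartilage. *Mmp14* was at 103, 165 and 115 FPKM in *Fgfr2+/+* MC and at 119, 107 and 93.8 FPKM in *Fgfr2+/S252W* MC. In bone it was between 46.6 and 75.3 FPKM, and in condylar cartilage between 21.5 and 30.3 FPKM, so that no library of one tissue overlapped another tissue. *Timp2* was at 116, 207 and 144 FPKM in *Fgfr2+/+* MC and at 171, 138 and 134 FPKM in *Fgfr2+/S252W* MC. Bone libraries lay between 43.8 and 57.3 FPKM and condylar libraries between 20.5 and 37.2 FPKM, again without overlap. Bone was lower than MC by 0.95 in *Mmp14* (log2 difference -0.95, SE 0.12, adjusted p = 8.08e-06) and by 1.59 in *Timp2* (log2 difference -1.59, SE 0.14, adjusted p = 1.15e-07, limma). Condylar cartilage was lower than MC by a log2 difference of -2.14 in *Mmp14* (SE 0.13, adjusted p = 4.75e-10) and of -2.28 in *Timp2* (SE 0.14, adjusted p = 7.78e-10, limma), or 4.40-fold and 4.86-fold. Each difference had the same direction in 6 of 6 embryos, and each passed in all 29 other fits.

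The proportion of the pair differed between bone and cartilage. *Mmp14* over *Timp2*, as a ratio of FPKM within a library, was between 1.06 and 1.43 in the 6 bone libraries. It was between 0.695 and 0.887 in MC and between 0.76 and 1.05 in condylar cartilage, so that every bone library was above every cartilage library. Within bone, the 3 *Fgfr2+/S252W* libraries had ratios between 1.251 and 1.43 and the 3 *Fgfr2+/+* libraries between 1.06 and 1.13. The genotypes separated the other way in MC, where the *Fgfr2+/S252W* ratios were 0.695, 0.698 and 0.773 and the *Fgfr2+/+* ratios 0.794, 0.798 and 0.887, and they overlapped in condylar cartilage. For single genes, the libraries of the genotypes did not overlap in 20.4% of all genes in bone and in 13.4% in MC. A share for ratios was not computed. The ratio was looked at after the levels of both genes were known and carries no test.

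**Figure D2:**
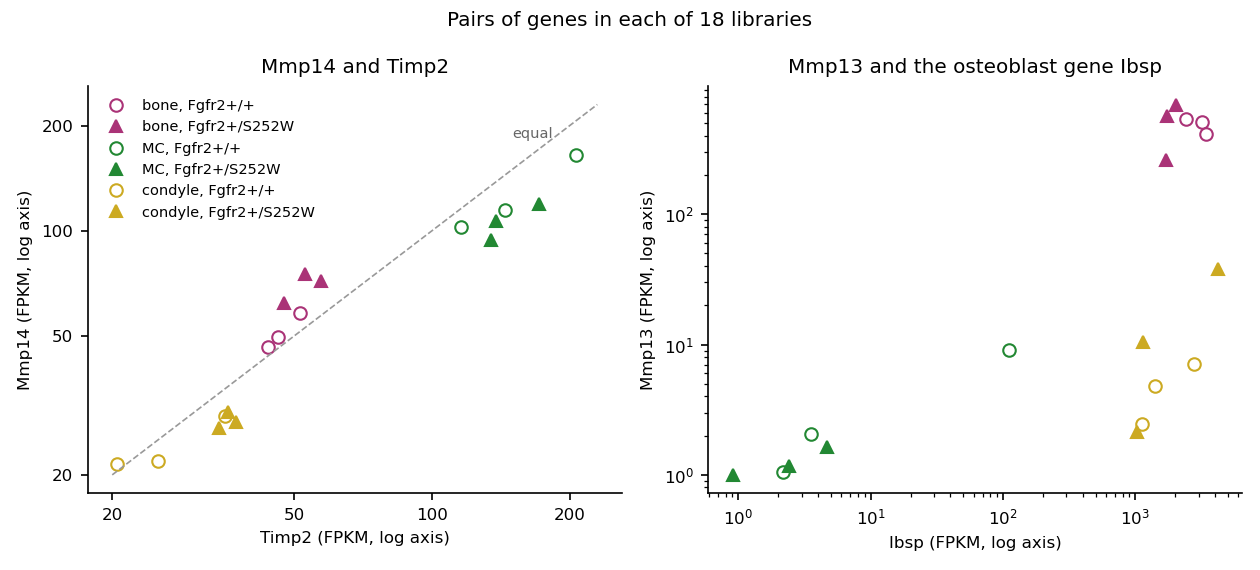
Left, *Mmp14* against *Timp2*, and right, *Mmp13* against the osteoblast gene *Ibsp*, both axes in FPKM on log scales, with 1 point per library, color for tissue, open circles for *Fgfr2+/+* and filled triangles for *Fgfr2+/S252W*. Bone lies above the dashed line of equal levels of *Mmp14* and *Timp2*, at ratios from 1.06 to 1.43, and the 6 MC libraries lie below it. At right, the open MC circle that stands apart is *Fgfr2+/+* replicate 1, at 9.14 FPKM of *Mmp13* and 111 FPKM of *Ibsp*.

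*Mmp2*, the gelatinase gene, was lowest in condylar cartilage. It was at 49.3, 47.7 and 64.8 FPKM in *Fgfr2+/+* and at 70.7, 61.9 and 78.9 FPKM in *Fgfr2+/S252W* condylar cartilage. In MC it was between 91.1 and 132 FPKM, above every condylar library, and the log2 difference of condylar cartilage minus MC was -0.87 (SE 0.11, adjusted p = 4.42e-06, limma). Bone lay between 74.0 and 118 FPKM and overlapped both. It was higher than condylar cartilage by 0.62 (SE 0.11, adjusted p = 0.000213, limma), in 6 of 6 embryos. Between bone and MC the difference of -0.24 (95% confidence interval -0.48 to -0.0046) did not pass (adjusted p = 0.0848, limma). In *Fgfr2+/+* embryos alone it was -0.53 (adjusted p = 0.0177, limma), and in *Fgfr2+/S252W* embryos alone it was 0.046 (adjusted p = 0.849, limma).

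The other membrane-type and convertase-activated enzymes each had their own order. *Mmp16* was highest in bone, at 21.2, 18.6 and 27.6 FPKM in *Fgfr2+/+* and at 27.5, 31.7 and 34.4 FPKM in *Fgfr2+/S252W* embryos. The MC libraries lay between 4.69 and 11.4 FPKM and the condylar libraries between 8.45 and 12.6 FPKM, all below bone. Bone was higher than MC by 1.78 (SE 0.17, adjusted p = 3.11e-07) and higher than condylar cartilage by 1.42 (SE 0.15, adjusted p = 5.21e-07, limma). The cartilages did not differ past the threshold in the reported fit (0.36, SE 0.16, adjusted p = 0.0603, limma), and this difference passed in 5 of 29 other fits. *Mmp11*, first described as stromelysin 3 in stromal cells, was highest in MC, with 7.71 to 11.7 FPKM there, 4.14 to 6.32 FPKM in bone and 0.581 to 2.33 FPKM in condylar cartilage. No library of one tissue overlapped another. Condylar cartilage was 6.34-fold lower than MC (log2 difference -2.66, SE 0.22, adjusted p = 1.9e-08), and bone was lower than MC by a log2 difference of -0.82 (SE 0.18, adjusted p = 0.00105, limma).

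*Mmp23* was the weakest of the enzymes in MC. It was at 2.66, 0.667 and 0.392 FPKM in *Fgfr2+/+* MC, from 41, 5 and 3 fragments, and at 0.839, 2.36 and 1.10 FPKM in *Fgfr2+/S252W* MC. The highest of these was the library that stood apart. Bone lay between 4.64 and 7.05 FPKM and condylar cartilage between 3.13 and 5.29 FPKM, both above every MC library. The log2 differences from MC were 2.13 in bone (SE 0.35, adjusted p = 0.000104) and 1.74 in condylar cartilage (SE 0.31, adjusted p = 0.000113, limma). Without *Fgfr2+/+* MC replicate 1 they were 2.66 (SE 0.44) and 2.29 (SE 0.39). Bone and condylar cartilage differed by 0.39 (95% confidence interval -0.06 to 0.84, adjusted p = 0.149, limma). This difference passed in 2 of 29 other fits, at 0.60 (adjusted p = 0.0358, limma) with libraries scaled to totals without mitochondrial genes and *Gm42418* and at 0.41 (adjusted p = 0.0450, limma) with sample quality weights.

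Among the inhibitors, *Timp1* was higher in bone and condylar cartilage than in MC. In bone it was at 55.0, 77.4 and 74.8 FPKM in *Fgfr2+/+* and at 100.0, 95.6 and 79.9 FPKM in *Fgfr2+/S252W* embryos. Condylar cartilage lay between 30.6 and 73.5 FPKM, the highest being *Fgfr2+/S252W* replicate 3, in which *Mmp13* was also highest. MC lay between 3.76 and 18.5 FPKM, below every library of the other tissues. Bone was 8.495-fold higher than MC (log2 difference 3.09, SE 0.24, adjusted p = 3.77e-08), and condylar cartilage was 5.01-fold higher (2.32, SE 0.22, adjusted p = 8.37e-08, limma). In *Fgfr2+/+* embryos alone these differences were 2.14 and 1.39, and in *Fgfr2+/S252W* embryos alone 4.04 and 3.26, all past the threshold. Bone exceeded condylar cartilage in 6 of 6 embryos, by 0.76 (SE 0.17, adjusted p = 0.00147, limma).

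*Timp3* and *Reck* varied least between tissues. *Timp3*, the matrix-bound inhibitor, was between 42.0 and 61.8 FPKM in condylar cartilage, between 29.3 and 43.0 FPKM in bone and between 30.7 and 42.7 FPKM in MC. Condylar cartilage was higher than MC by 0.48 (SE 0.13, adjusted p = 0.00448) and bone was lower than condylar cartilage by a log2 difference of -0.40 (SE 0.13, adjusted p = 0.0155, limma), each in 6 of 6 embryos. The first call was lost in 1 of 29 other fits, that of the *Fgfr2+/S252W* embryos alone (0.30, adjusted p = 0.200, limma). The second call was lost in 5 of 29 other fits, among them those without replicate 3 of either bone group or of *Fgfr2+/+* condylar cartilage, with adjusted p-values between 0.0731 and 0.0741. Its difference was -0.19 (adjusted p = 0.260, limma) when libraries were scaled to totals without mitochondrial genes and *Gm42418*. *Reck*, the membrane-anchored inhibitor, lay between 10.9 and 22.3 FPKM over all 18 libraries. Its largest difference between tissues was -0.27 (condylar cartilage minus MC, 95% confidence interval -0.57 to 0.03, adjusted p = 0.118, limma). Under the same scaling to totals, *Reck* in condylar cartilage was lower than in MC by a log2 difference of -0.38 (adjusted p = 0.0240) and bone was higher than condylar cartilage by 0.45 (adjusted p = 0.00972, limma), both past the threshold.

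Counted over the 10 genes, bone was higher than MC in 4 (*Mmp13*, *Mmp16*, *Mmp23* and *Timp1*) and lower in 3 (*Mmp11*, *Mmp14* and *Timp2*), where 24.9% of all 11469 genes passed as higher and 24.6% as lower. Bone was higher than condylar cartilage in 7 genes (*Mmp2*, *Mmp11*, *Mmp13*, *Mmp14*, *Mmp16*, *Timp1* and *Timp2*) and lower in *Timp3*, where 24.3% of all genes passed as higher and 22.7% as lower. Condylar cartilage was higher than MC in 4 genes (*Mmp13*, *Mmp23*, *Timp1* and *Timp3*) and lower in 4 (*Mmp2*, *Mmp11*, *Mmp14* and *Timp2*), where 28.6% of all genes passed as higher and 29.1% as lower. The median of the 10 log2 differences was 0.03, 0.73 and 0.05 in this order, and that of all genes was -0.00, -0.00 and -0.01. Under the scaling to totals named above, the median of all genes moved to 0.21 between bone and condylar cartilage, and the share of passing genes that were higher in bone moved from 51.7% to 67.6%. The 3 comparisons share libraries, and between 5388 and 6616 genes passed in each.

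**Figure D3:**
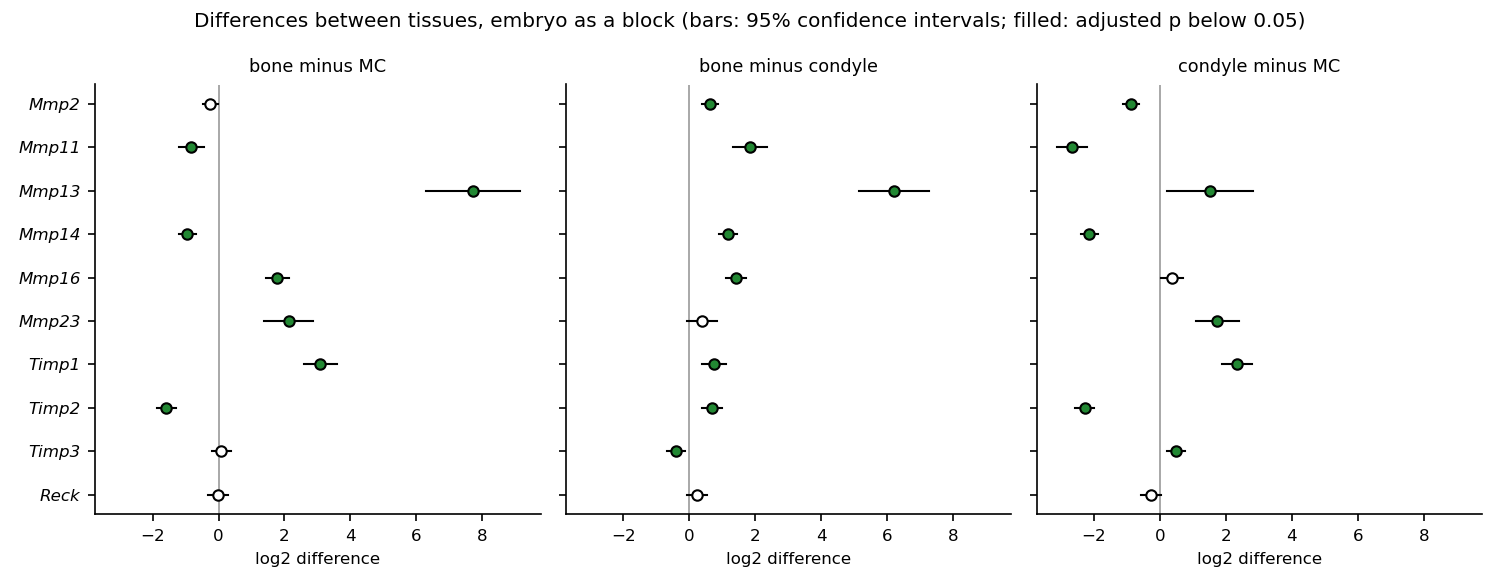
Log2 differences between tissues for the 10 genes with 95% confidence intervals, from the fit with the embryo as a block over 18 libraries, filled where the adjusted p was below 0.05. *Mmp13* lies farthest to the right for bone against either cartilage, at 7.73 and 6.22, and *Mmp14* and *Timp2* lie on the side of MC in both panels that include it.

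Summed over the 6 enzymes, the level in bone was between 474 and 923 FPKM, of which *Mmp13* was between 55.2% and 78.5%. In MC the sum was between 206 and 304 FPKM, and in condylar cartilage between 85.1 and 164 FPKM, without overlap between tissues. The 3 *Timp* genes summed to between 143 and 199 FPKM in bone, between 163 and 256 FPKM in MC and between 93.1 and 161 FPKM in condylar cartilage. Enzymes over inhibitors was therefore between 2.99 and 4.67 in bone, between 1.11 and 1.44 in MC and between 0.746 and 1.02 in condylar cartilage. Without *Mmp13* the ratio in bone was between 0.941 and 1.34, which overlapped the range of 1.10 to 1.43 in MC. These are sums of transcripts and say nothing of the amount of active enzyme. They leave out *Mmp9*, at a median of 144 FPKM in bone, 9.40 FPKM in MC and 0.305 FPKM in condylar cartilage. Ratios that include it were not computed.

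The genotypes were compared within each tissue, which asks whether the *Fgfr2+/S252W* allele went with other levels of these genes. No member passed in any of the 3 tissues in the reported limma fit. In bone, where 10 of 11469 genes (0.0872%) passed, 3 members had an unadjusted p below 0.05, where 8.13% of all genes did, and 7 of 10 differences were above 0, with a median of 0.20 against -0.00 over all genes. *Mmp2*, *Mmp14*, *Timp1* and *Reck* had all 3 *Fgfr2+/S252W* bone libraries above all 3 *Fgfr2+/+* libraries, and the libraries of the genotypes did not overlap in 20.4% of all genes. *Mmp2* was at 76.8, 74.0 and 87.9 FPKM in *Fgfr2+/+* and at 118, 113 and 105 FPKM in *Fgfr2+/S252W* bone. The log2 fold change was 0.50 (SE 0.16, 95% confidence interval 0.16 to 0.83, adjusted p = 0.374, limma). *Mmp14* was at 49.5, 46.6 and 58.2 FPKM in *Fgfr2+/+* and at 71.6, 75.3 and 62.0 FPKM in *Fgfr2+/S252W* bone, with a log2 fold change of 0.44 (SE 0.17, 95% confidence interval 0.09 to 0.78, adjusted p = 0.492, limma). *Mmp16*, the other membrane-type gene, had a log2 fold change of 0.48 (SE 0.19, adjusted p = 0.526, limma), and its *Fgfr2+/+* library at 27.6 FPKM overlapped the *Fgfr2+/S252W* library at 27.5 FPKM.

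These 3 values passed with sample quality weights, with adjusted p-values of 0.0111 for *Mmp2*, 0.0172 for *Mmp14* and 0.0291 for *Mmp16*. In that fit *Fgfr2+/+* bone replicate 3 had a weight of 0.744 against 1.17 to 3.27 for the other bone libraries, and 589 genes passed. *Mmp2* also passed when replicate numbers were paired between the genotypes within bone alone (adjusted p = 0.0481, limma), where 554 genes passed. In edgeR and DESeq2, 0 members passed in bone. *Timp1* had a log2 fold change of 0.42 (95% confidence interval -0.02 to 0.86, adjusted p = 0.631, limma), and *Reck* of 0.24 (95% confidence interval -0.11 to 0.59, adjusted p = 0.780, limma). *Mmp13* showed the widest spread, its difference of -0.05 having a confidence interval of -1.02 to 0.92, with the lowest of the 6 libraries in *Fgfr2+/S252W* replicate 3. The confidence intervals of *Mmp11*, *Mmp23*, *Timp2* and *Timp3* in bone all held 0 and lay between -0.80 and 0.55.

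Marker sums of other cells in the same bone libraries are given beside these values, and in the reported fit 0 tested markers of any of the 10 marker lists passed between genotypes in bone (limma). Summed over 10 osteoclast markers, the level was between 442 and 539 FPKM in *Fgfr2+/+* and between 718 and 946 FPKM in *Fgfr2+/S252W* bone. Summed over 8 macrophage markers it was between 56.4 and 76.7 FPKM in *Fgfr2+/+* and between 97.4 and 135 FPKM in *Fgfr2+/S252W* bone, although the median log2 fold change of its 4 tested markers was -0.37. Erythroid markers summed to between 1630 and 1959 FPKM in *Fgfr2+/+* and between 405 and 770 FPKM in *Fgfr2+/S252W* bone, and smooth muscle and pericyte markers to between 42.0 and 57.0 FPKM and between 31.3 and 33.3 FPKM. These 4 sums did not overlap between genotypes. Skeletal muscle markers summed to 106, 101 and 13.4 FPKM in the *Fgfr2+/+* libraries and to between 0.859 and 13.9 FPKM in the *Fgfr2+/S252W* libraries, which overlapped. Summed over 4 hypertrophic chondrocyte markers, the level was between 227 and 267 FPKM in *Fgfr2+/+* and between 165 and 197 FPKM in *Fgfr2+/S252W* bone. Over 10 chondrocyte markers it was between 39.6 and 81.4 FPKM and between 83.2 and 107 FPKM. Neither of these sums overlapped between genotypes. The share of the abundant transcript *Gm42418* was between 8.57% and 9.33% in *Fgfr2+/+* and between 5.585% and 6.49% in *Fgfr2+/S252W* bone, whereas the mitochondrial share overlapped (20.4% to 36.0% and 23.4% to 23.6%). The part of these cells and shares in the levels of the 10 genes was not tested.

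In MC, where 0% of genes passed in the reported limma fit, 1 member had an unadjusted p below 0.05, where 15.4% of all genes did. This was *Timp1*, at 16.4, 18.5 and 11.2 FPKM in *Fgfr2+/+* and at 3.76, 4.82 and 8.48 FPKM in *Fgfr2+/S252W* embryos, from 19 to 157 fragments. All *Fgfr2+/S252W* libraries were below all *Fgfr2+/+* libraries, where 13.4% of all genes did not overlap. The log2 fold change was -1.52 (SE 0.50, 95% confidence interval -2.57 to -0.47, adjusted p = 0.181, limma), a 2.87-fold lower level. It was -1.42 (adjusted p = 0.292) without *Fgfr2+/+* MC replicate 1. It passed in edgeR (adjusted p = 0.0483) and DESeq2 (adjusted p = 0.00455), where 90 and 423 genes passed, and in the 6 MC libraries alone its adjusted p was 0.606. Osteoclast markers also did not overlap, summing to between 44.7 and 102 FPKM in *Fgfr2+/+* and between 32.8 and 39.4 FPKM in *Fgfr2+/S252W* MC, and macrophage markers between 16.3 and 48.9 FPKM and between 50.8 and 72.3 FPKM. The part of these cells in the *Timp1* value was not tested.

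The other 9 members had adjusted p-values in MC of 0.361 or more in the reported limma fit. *Timp3* was the other gene whose libraries did not overlap, at 30.7 to 31.9 FPKM in *Fgfr2+/+* and 33.0 to 42.7 FPKM in *Fgfr2+/S252W* embryos (0.31, 95% confidence interval -0.07 to 0.69), where 13.4% of all genes did not overlap. For *Mmp14* and *Timp2*, the differences were -0.22 (95% confidence interval -0.58 to 0.14) and -0.03 (95% confidence interval -0.42 to 0.37). *Mmp13*, at 0.999 to 9.14 FPKM, could not be resolved, with a log2 fold change of -1.45 and a confidence interval from -4.51 to 1.61. Without *Fgfr2+/+* MC replicate 1 it was -0.24 (95% confidence interval -3.97 to 3.48), and without *Fgfr2+/+* MC replicate 3 it was -2.06.

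In condylar cartilage, where 0% of genes passed in the reported limma fit, 3 members had an unadjusted p below 0.05, where 3.06% of all genes did. Of the 10 differences, 8 were above 0, with a median of 0.33 against -0.01 over all genes. *Reck* was at 13.3, 10.9 and 11.2 FPKM in *Fgfr2+/+* and at 16.4, 16.8 and 14.9 FPKM in *Fgfr2+/S252W* embryos. It was the only member whose libraries did not overlap, which held for 9.77% of all genes, and its log2 fold change was 0.44 (SE 0.18, 95% confidence interval 0.06 to 0.82). *Timp2* was at 25.2, 20.5 and 35.3 FPKM and at 34.2, 35.9 and 37.2 FPKM, with a log2 fold change of 0.44 (SE 0.20). *Mmp2* had one of 0.39 (SE 0.17). All 3 had an adjusted p of 0.998 in the reported limma fit, and 0 members passed in edgeR or DESeq2. In the same libraries the mitochondrial share of the counts did not overlap between genotypes (19.4% to 23.55% in *Fgfr2+/+* and 23.6% to 27.7% in *Fgfr2+/S252W* embryos), nor did the sum of 8 skeletal muscle markers (3.74 to 55.6 FPKM and 1.02 to 2.41 FPKM), and their part in these values was not tested. *Mmp13* had a log2 fold change of 0.90 (95% confidence interval -0.71 to 2.496), with the *Fgfr2+/S252W* library of many osteoblast transcripts as its highest value. Without that library, replicate 3, it was 0.024, and without *Fgfr2+/S252W* replicate 1 it was 2.12 (adjusted p-values 0.998 and 0.700, limma). It was 1.81 in edgeR and 1.84 in DESeq2, neither past the threshold.

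**Figure D4:**
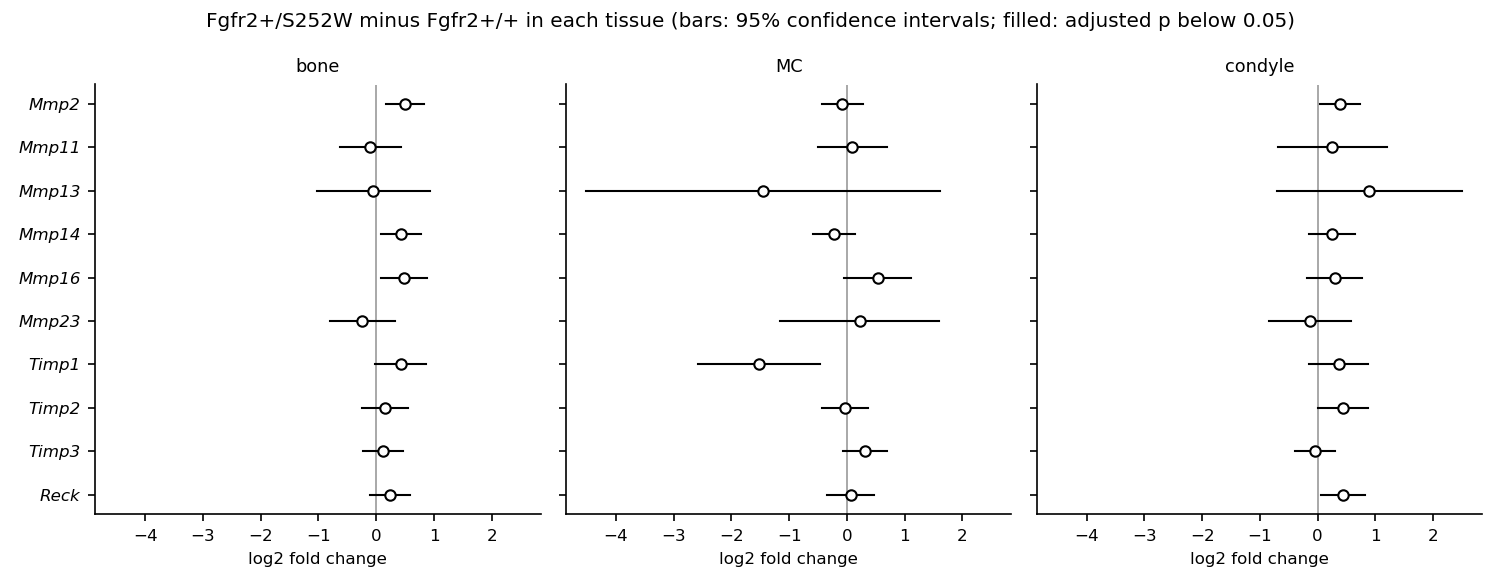
Log2 fold changes of *Fgfr2+/S252W* over *Fgfr2+/+* for the 10 genes in bone, MC and condylar cartilage (condyle), with 95% confidence intervals from limma on 18 libraries. All points are open, since no adjusted p was below 0.05, and the intervals of *Mmp2*, *Mmp14* and *Mmp16* in bone, of *Timp1* in MC and of *Mmp2*, *Timp2* and *Reck* in condylar cartilage leave out 0.

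Differences of the genotype effect between tissues were tested as interactions. No member passed in the reported limma fit, where 0.0349% of genes passed for bone against MC and 0% for the other pairs. At an unadjusted p below 0.05 there were 3 members for bone against MC, where 9.12% of all genes were, 0 for bone against condylar cartilage (2.86% of all genes) and 1 for condylar cartilage against MC (10.4% of all genes). *Timp1* had the largest of the values with an unadjusted p below 0.05, the effect being higher by 1.90 in bone than in MC (SE 0.57, adjusted p = 0.353) and by 1.87 in condylar cartilage than in MC (SE 0.50, adjusted p = 0.198, limma). Both passed in DESeq2, at adjusted p-values of 0.0163 and 0.0373, and not in edgeR, in which 0 members passed. *Mmp14* and *Mmp2* had differences of 0.66 (SE 0.24) and 0.58 (SE 0.23) between bone and MC, with adjusted p-values of 0.447 and 0.480 in limma.

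Beyond the members, *Mmp9* and *Mmp17* were the metalloproteinase genes that could be tested. Of 23 *Mmp* genes looked for, 8 passed the filter, these being the 6 members with *Mmp9* and *Mmp17*. On the scale of the levels printed here, 11 were above 1 FPKM in no library. *Mmp17* was above 1 FPKM in 6 libraries on this scale and in 10 on that of the filter, which uses library totals, and *Mmp8* in 7 and 6, so that it was not tested. *Mmp9*, the gelatinase of osteoclasts, was between 65.0 and 256 FPKM in bone, between 6.90 and 33.3 FPKM in MC and between 0.0247 and 1.87 FPKM in condylar cartilage. Bone exceeded MC by 3.42 (SE 0.28, adjusted p = 6.04e-08) and condylar cartilage by 8.73 (SE 0.77, adjusted p = 7.03e-08, limma). *Mmp17*, which encodes a membrane-type enzyme, was highest in condylar cartilage, with 3.67 to 7.36 FPKM there and below 1 FPKM in every other library. Condylar cartilage exceeded MC by 4.68 (SE 0.47, adjusted p = 1.86e-07, limma). Bone exceeded MC by 1.82 (SE 0.54, adjusted p = 0.00981, limma), in 5 of 6 embryos and with libraries that overlapped. Between genotypes, *Mmp9*, chosen after its values were seen, was at 65.0, 97.5 and 119 FPKM in *Fgfr2+/+* and at 256, 215 and 169 FPKM in *Fgfr2+/S252W* bone (log2 fold change 1.21, SE 0.29, adjusted p = 0.140, limma), beside the osteoclast markers given above.

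**Figure D5:**
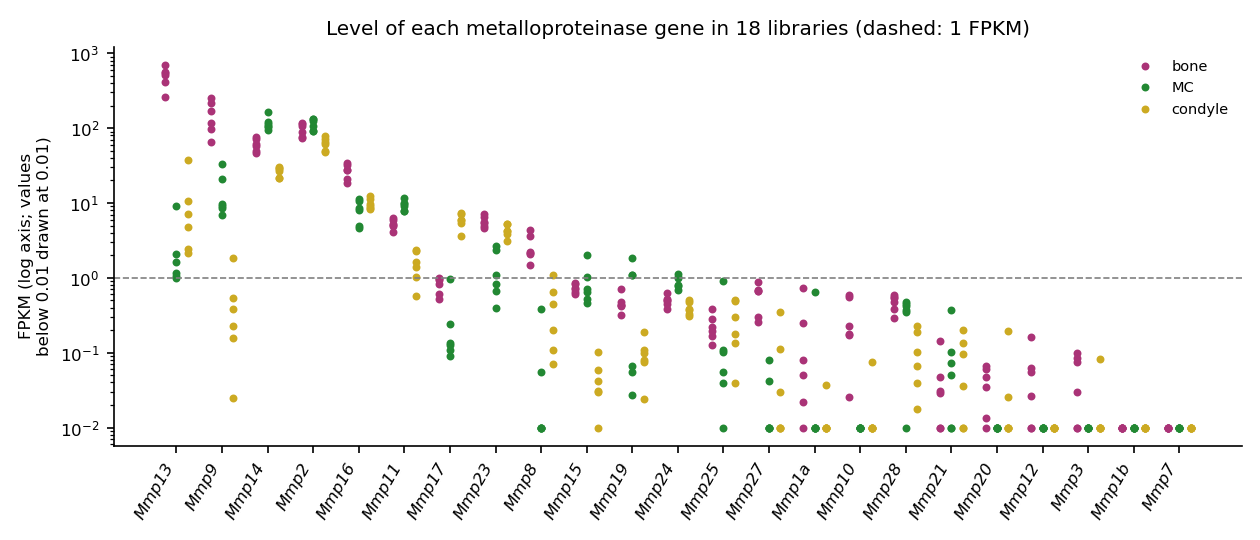
Level in FPKM (log axis) of the 23 *Mmp* genes in the 18 libraries, ordered by their highest library, with color for tissue. *Mmp13* and *Mmp9* reach 696 and 256 FPKM in bone, and 11 genes stay below the dashed line at 1 FPKM in all libraries.

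Genes that act on these enzymes, or that are cut by them, were counted in fixed lists, to be read beside the shares of all genes that passed between tissues. These were 24.9% higher and 24.6% lower in bone than in MC, 24.3% and 22.7% in bone than in condylar cartilage, and 28.6% and 29.1% in condylar cartilage than in MC. The 4 proprotein convertases that activate membrane-type and convertase-activated enzymes were all tested. *Pcsk5* was lower in condylar cartilage than in MC by a log2 difference of -3.43 (SE 0.19, adjusted p = 2.42e-10), as *Mmp14* and *Mmp11* were, whereas *Pcsk6* was higher by 4.47 (SE 0.33, adjusted p = 4.82e-09, limma). *Furin* was lower in bone than in MC (-0.78, SE 0.15, adjusted p = 0.00051) and than in condylar cartilage (-0.84, SE 0.15, adjusted p = 0.000129, limma). Of 7 tested genes of cell-surface partners, 5 were higher and 1 was lower in bone than in MC, against 24.9% and 24.6% of all genes. *Bsg*, which encodes the inducer of metalloproteinases basigin, was higher in condylar cartilage than in MC by 1.79 (SE 0.12, adjusted p = 2.02e-09, limma), and *Itgb3*, an osteoclast integrin gene, was higher in bone than in MC by 3.89 (SE 0.42, adjusted p = 1.17e-06, limma).

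Other proteases of the matrix were counted in the same way. All 7 tested genes of cysteine cathepsins and cystatins were higher in bone than in condylar cartilage, where 24.3% of all genes were, led by *Ctsk*, the collagen-cutting cathepsin of osteoclasts (5.41, SE 0.20, adjusted p = 2.78e-12, limma). Of 5 tested genes of plasminogen activation, a cascade that can activate metalloproteinases, 4 were higher in bone than in MC and 0 were lower, against 24.9% and 24.6% of all genes. *Plat* and *Plau*, the tissue and urokinase plasminogen activators, were lower in condylar cartilage than in MC by log2 differences of -3.41 (SE 0.32, adjusted p = 1.02e-07) and -3.62 (SE 0.37, adjusted p = 2.42e-07, limma). Of 13 tested *Adamts* genes, 3 were higher and 8 were lower in condylar cartilage than in MC, against 28.6% and 29.1% of all genes. Among these were *Adamts4* and *Adamts5*, the aggrecanases, with log2 differences of -2.75 (SE 0.26) and -3.54 (SE 0.39). Of 12 genes of collagens and other substrates, all tested, 8 were higher and 4 were lower in bone than in condylar cartilage, against 24.3% and 22.7% of all genes. In none of the 12 lists did a gene pass between genotypes in any tissue in the reported limma fit, and the lists were not counted in the other fits.

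Transcription factors known to act on metalloproteinase genes were a further list, with 10 genes tested. Of these, 5 were higher and 1 was lower in bone than in MC, against 24.9% and 24.6% of all genes. Condylar cartilage against MC gave the same counts, 5 higher and 1 lower, against 28.6% and 29.1% of all genes. Between bone and condylar cartilage, 3 were higher and 2 were lower in bone, against 24.3% and 22.7% of all genes. *Fosl2*, which encodes an AP-1 protein, was higher in bone by 1.13 (SE 0.11, adjusted p = 6.77e-07) and 0.73 (SE 0.11, adjusted p = 1.95e-05, limma). *Jun*, another AP-1 gene, was lower in bone than in MC (-1.48, SE 0.26, adjusted p = 0.000202, limma). The median of this list was 0.93 between bone and MC, and that of all genes was -0.00.

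For each member, the 3 genes with the most similar pattern were found by the Pearson correlation of log2 normalized counts over the 18 libraries. The points share 3 tissues and 6 embryos, so these values describe likeness across tissues and carry no test. *Timp2* had the closest neighbors, *Rbfox2* (r = 0.989), *Bicc1* (r = 0.985) and *Tenm4* (r = 0.979), and *Mmp14* was closest to *Dlg5* (r = 0.980), *Tcf12* and *Ndst1*. *Mmp13* was closest to *Fyn* (r = 0.971), *Lifr* and *Acadl*. *Timp1* was closest to *Galnt6* (r = 0.959), *Phex*, the endopeptidase gene of osteoblasts and osteocytes, and *Cthrc1*. *Mmp11* was closest to *Pdgfrb* (r = 0.978), *Thbs2* and *Pik3c2b*, the first a gene of pericytes and other mesenchymal cells. The nearest of *Mmp2* was *Foxo3* (r = 0.950), before *Pkd2* and *Srgap3*, that of *Mmp16* was *Dmxl1* (r = 0.934), before *Pcolce* and *2810025M15Rik*, and that of *Mmp23* was *Nadk2* (r = 0.947), before *Col13a1* and *Slc25a5*. *Timp3* (*Gm22814*, *Gm24045* and *Ddt*, r from 0.814 to 0.846) and *Reck* (*Adamts12*, *Chka* and *Spg11*, r from 0.767 to 0.773) had no neighbor above 0.85. Among the members themselves, *Mmp14* and *Timp2* were the most alike pair (r = 0.951) and *Mmp23* and *Timp2* the least (r = -0.792).

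The 10 genes lie on 7 chromosomes of GRCm38, with positions from the annotation of the deposited counts. *Mmp13* (ENSMUSG00000050578) lies on chromosome 9 from 7272514 to 7283333, *Mmp2* (ENSMUSG00000031740) on chromosome 8 from 92827328 to 92853417 and *Mmp14* (ENSMUSG00000000957) on chromosome 14 from 54431604 to 54441258. *Mmp16* (ENSMUSG00000028226, 17853091 to 18119145), *Reck* (ENSMUSG00000028476, 43875530 to 43944806) and *Mmp23* (ENSMUSG00000029061, 155650655 to 155653384) lie on chromosome 4. *Mmp11* (ENSMUSG00000000901, 75923222 to 75932502) and *Timp3* (ENSMUSG00000020044, 86300372 to 86349506) lie on chromosome 10, *Timp2* (ENSMUSG00000017466) on chromosome 11 from 118301069 to 118355740 and *Timp1* (ENSMUSG00000001131) on chromosome X from 20870166 to 20874735. Counts were taken over all annotated exons of each gene without regard to strand. No exon of another annotated gene overlapped an exon of the 10 genes, although *Timp1* and *Timp3* each lie within the span of 1 other gene, from whose unspliced RNA fragments without strand could not be told apart.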

How the data were processed

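RNA of 18 laser-captured samples was amplified (NuGEN Ovation v2), made into Nextera XT libraries and sequenced in pairs. Per the file headers and the labels, the authors aligned reads to mm10 and deposited raw fragment counts per gene from featureCounts 1.5.0-p1 on the GRCm38.75 annotation, without strand. Removal of PCR duplicates is not given in the sources used here, so precision covers counting error and the spread between embryos only.

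From these counts, FPKM were computed with TMM factors. Genotypes were compared by limma-voom (limma 3.58.1, edgeR 4.0.16, R 4.3.3) with 1 mean per group over 18 libraries. Tissues and interactions were compared with the embryo as a block, taken from the embryo code in the labels. Deviations of tissues with the same code correlated between -0.089 and 0.106, so the counts themselves do not show which libraries share an embryo. The filter on low values required more than 1 FPKM, by library totals without TMM factors, in 50% or more of the 18 libraries (11469 genes), and Benjamini-Hochberg adjusted p-values below 0.05 passed. Other fits used DESeq2 1.42.0, the quasi-likelihood test of edgeR, other scalings, filters, weights, blocks and subsets, and each library left out. Members and lists were chosen with earlier results of these data known. Named genes were all members, up to 4 genes with the smallest p per list and 3 genes of most similar pattern per member. The scripts were tested on simulated data.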

Additional observations from a re-analysis of the deposited data

Results flagged for a closer look

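The *Timp1* libraries of the genotypes separated in opposite directions in bone and MC, although neither log2 fold change passed (bone 0.42, adjusted p = 0.631, and MC -1.52, adjusted p = 0.181, limma). All 3 *Fgfr2+/S252W* libraries were above all *Fgfr2+/+* libraries in bone and below them in MC. Libraries of the genotypes did not overlap in 20.4% of all genes in bone and in 13.4% in MC. The share of genes that separate in opposite directions was not computed. The difference of the log2 fold changes of *Timp1* was 1.9012 (SE 0.57, adjusted p = 0.353, limma). It was 1.67 (adjusted p = 0.420, limma) without *Fgfr2+/+* MC replicate 1. The MC values rest on 19 to 157 fragments.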

How the results depend on the processing

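None of the 2518 values of the 10 genes under an alternative reversed a call, 2478 stayed on their side of the threshold, 22 lost a call and 18 gained one. Numbers of genes that passed moved more. Between genotypes in bone, 4 genes passed in edgeR, 17 in DESeq2, 3 with library totals without mitochondrial genes and *Gm42418*, 21 with filterByExpr, 53 without a filter, 589 with quality weights (3 members) and 141 with bone alone. In MC, 90 passed in edgeR and 423 in DESeq2 (1 member in each), 45 without a filter and 1 with the embryo as a random block. In condylar cartilage, 3 passed in DESeq2 and 2 with quality weights. Between bone and MC, 13018 passed without a filter and 3668 in *Fgfr2+/+* embryos alone, between bone and condylar cartilage 3416 in *Fgfr2+/S252W* embryos alone, and between the cartilages 10514 without a filter. For the interaction of bone and MC, 1 passed in edgeR, 68 in DESeq2 (1 member), 1 with filterByExpr and 0 without a filter. For bone and condylar cartilage, 2 passed in DESeq2 and 6 with quality weights, and for the cartilages 40 in DESeq2 (1 member) and 1 with quality weights. With 1 library left out, between 0 and 92 genes passed between genotypes in bone, between 0 and 138 in MC and 0 in condylar cartilage, and between 0 and 8, 0 and 1, and 0 and 0 for the interactions, with 0 members throughout. Without a library, 7 members passed between bone and MC, and 7 to 8 in the other tissue pairs.

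Replicate numbers are shared by the genotypes and were not used as pairs in the reported fits. Deviations of equal numbers correlated between -0.105 and 0.238 in bone, -0.175 and -0.049 in MC and 0.05 and 0.309 in condylar cartilage. Libraries with the same embryo code correlated between -0.089 and 0.106, so such values cannot show whether equal numbers pair the samples. With the replicate block, 7 genes passed in bone over 18 libraries, and 554 with bone alone (1 member), and in condylar cartilage alone 7 passed.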
